A study of Mus musculus with 12 samples.

Results

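The genes described here carry the symbols *Clec* and *Klr*, which name C-type lectin proteins and the lectin-like receptors first found on killer cells. They were taken from the deposited table by their symbol and by a mean of at least 1 normalized count over the 12 libraries, and pseudogenes were left out. Of 49 such entries, 16 lay under that mean, 2 were pseudogenes and 1 was left out by the rule, so that 30 genes remained of the 28591 in the table, 23 *Clec* and 7 *Klr*. The member closest above the limit, *Clec4e*, had a mean of 1.07 and the gene closest below it, *Klre1*, a mean of 0.995. The 16 genes under the limit held at most 5 reads in any library.

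The RPE (retinal pigment epithelium) transcriptomes of 6 C57BL/6J (WT) and 6 *Mfrp* rd6/rd6 (rd6) animals, each 1 mo of age, were compared, to learn what the loss of MFRP changes in this tissue. MFRP is a membrane protein of the RPE, and the rd6 allele comes from a mouse line with slow retinal degeneration. Each library was made from the RPE of both eyes after the front of the eye and the neural retina had been taken off. The labels name no treatment, and they give neither the sex of the mice nor whether they were littermates, so that effects of the line's background and of the allele cannot be told apart.

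C-type lectins carry a fold that, in the classical members, binds sugars with the help of calcium, while many receptors of the *Klr* type bind proteins instead. On myeloid cells such as macrophages and microglia, receptors of this family read microbial sugars and signs of dying cells. Activating members such as dectin-2 (*Clec4n*) and MDL-1 (*Clec5a*) have no signaling tail of their own and depend on the adaptors FcRγ (*Fcer1g*), DAP12 (*Tyrobp*) or DAP10 (*Hcst*), whose phosphorylated motifs recruit the kinase SYK or PI3-kinase. Inhibitory members such as DCIR recruit phosphatases. Other members are secreted, line blood vessels or serve as ligands, and in mouse many lie together on chromosome 6 in the natural killer gene complex.

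The reads counted on genes summed to between 28907262 and 33152725 per library, and 3 reads, the floor used below, are worth between 2.71 and 3.32 normalized counts, which covers counting error only. All 8 RPE markers were measured, with *Rpe65* at 131906 to 193458 normalized counts in WT and 74331 to 131800 in rd6. *Mfrp* was present in both genotypes, at 30132 to 45442 in WT and 20442 to 29732 in rd6 (limma q = 0.0013). Markers of other tissues were present too, such as *Prph2* of rods at 789.6 to 5158. WT replicate 6 held more of several myeloid transcripts than the other WT libraries (*Fcrls* 263 against at most 64.3). WT replicate 4 held 69564 normalized counts of the corneal keratin *Krt12*, where the other WT libraries held at most 134. In rd6 replicate 5 the neuronal *Snap25* stood at 3730, where the other rd6 libraries held at most 547. Within rd6, replicates 1 to 3 held more of the endothelial gene *Pecam1* (1759 to 2355) than replicates 4 to 6 (867 to 1446). In RNA of a whole tissue, a change in the number of cells of a type and a change in the RNA per cell cannot be told apart.

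Of the 30 genes, 6 were higher in rd6 than in WT, with a log2 fold change of at least 0.81, the limit of the study, and a limma q (Benjamini-Hochberg adjusted p over 22917 genes) below 0.05, namely *Clec5a*, *Clec14a*, *Clec1a*, *Clec2d*, *Clec3a* and *Klrd1*. These were 20% of the genes, where 4.43% of all genes tested were higher by the same limits. None was lower by both limits, where 2.11% of all genes were. At an unadjusted p below 0.05 only *Clec18a* was lower, by less than the limit on the fold change, and edgeR and DESeq2 likewise called 0 of the 30 lower. At q below 0.05 alone, 7 were higher and 1 was lower, 26.7% against 17.9% of all genes. *Clec3a*, *Klrd1*, *Clec4e* and *Clec9a* had a WT mean under 1, so that they entered only through the rd6 libraries and their direction was fixed by the limit. Of the other 26 genes, 4 were called (15.4%), 13 had a positive and 13 a negative log2 fold change, and their median was -0.01. The median over all 30 was 0.32, against 0.0028 over all genes tested. In *Clec1a* and *Clec5a* the 6 rd6 libraries were all above the 6 WT libraries (4.76% of all genes did so), and in *Clec18a* they were all below (4.58% of all genes).

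**Figure D1:**
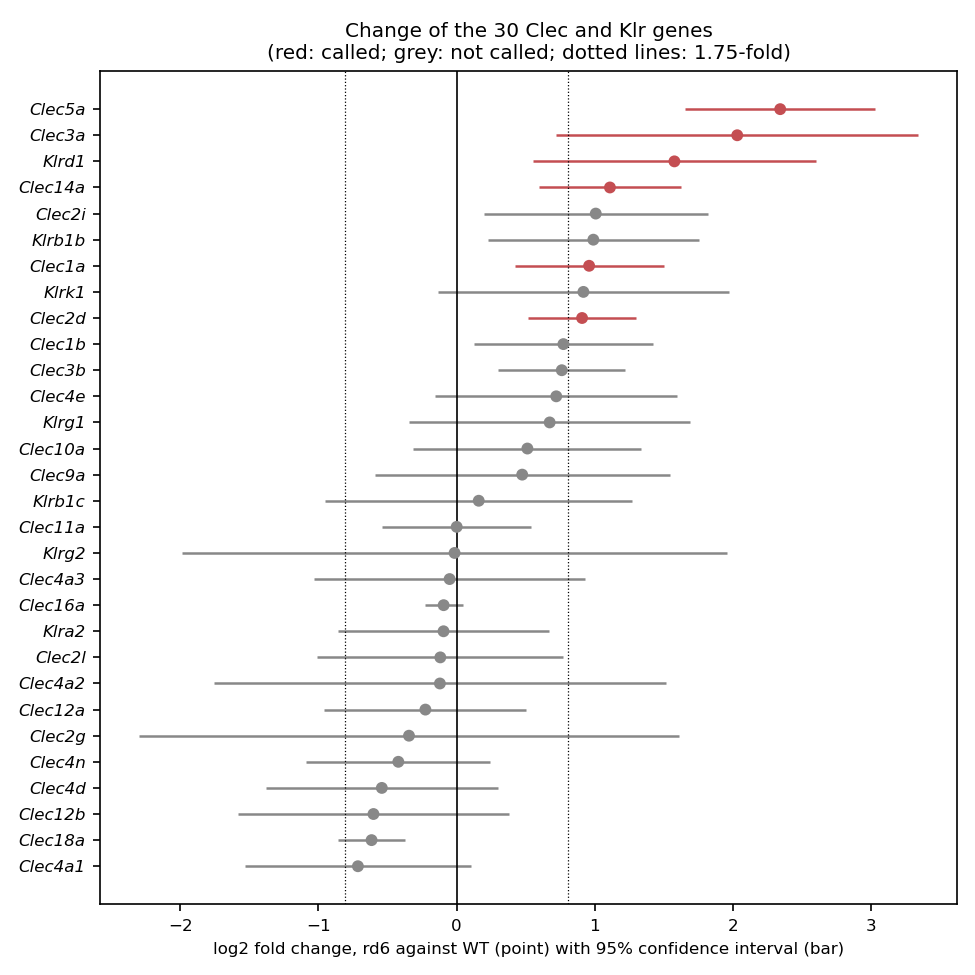
Log2 fold change of each of the 30 *Clec* and *Klr* genes, rd6 against WT, on the log2(normalized counts + 1) scale, with its 95% confidence interval from limma. Red marks the 6 genes called by both limits, all of them to the right of 0, and grey the 24 genes not called, with *Clec4a1* at the bottom at -0.71.

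Levels of different genes were compared per kilobase of exon. In WT RPE *Clec16a* had the highest level, 224 ± 14 normalized counts per kb (SD, n = 6), followed by *Clec2d* with 193 ± 27 and *Clec18a* with 184 ± 31.3, which do not differ beyond their spread. *Clec14a* (100 ± 23.5), *Clec11a* (81.0 ± 14.7) and *Clec3b* (67.9 ± 24.9) came next, again with overlapping spreads. The receptors of myeloid cells were far lower, *Clec4a1* with 15.9 ± 13 and *Clec4n* with 15.8 ± 4.76 leading them and *Clec5a* at 1.41 ± 0.404. No *Klr* gene passed 10 in WT, where *Klrg2* had the highest mean at 9.43 ± 19.4 with WT replicate 4 far above the others. That rank rests on WT replicate 4 alone, with 168 normalized counts against at most 7.75 in the other WT libraries. *Klra2* followed at 3.76 ± 2.09 per kb. In rd6 *Clec2d* stood highest at 374 ± 101, *Clec14a* had 226 ± 91.8, *Clec16a* 210 ± 17.7 and *Clec18a* 119 ± 13.9, and *Clec5a* had 8.61 ± 3.09.

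**Figure D2:**
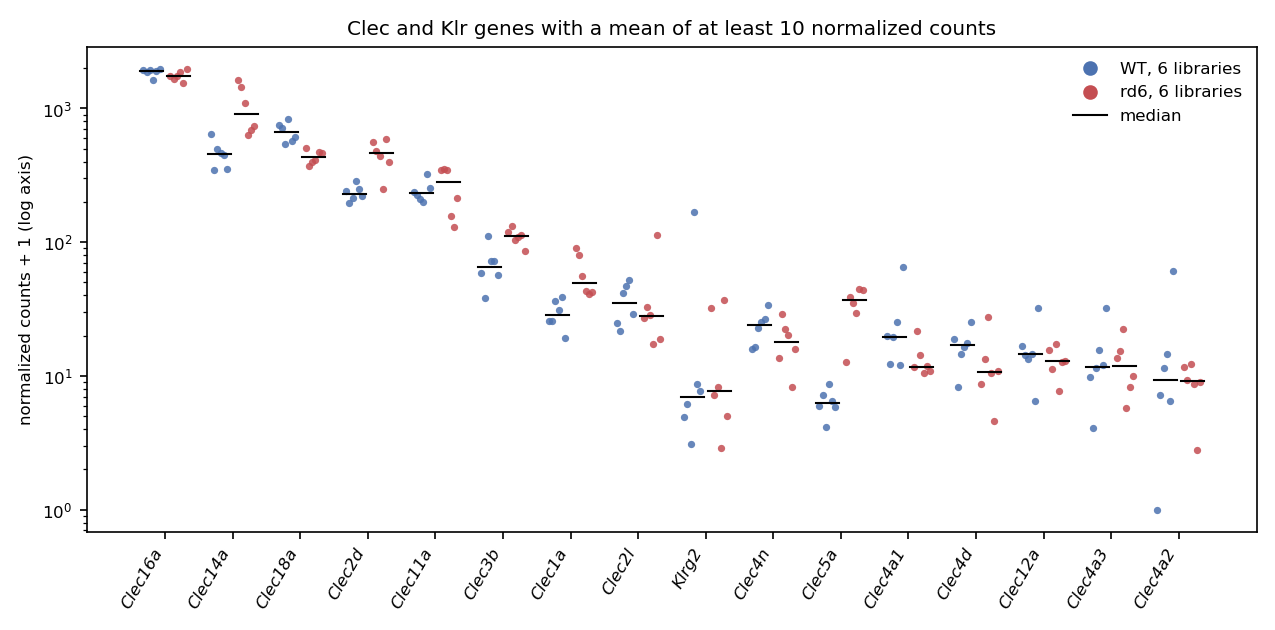
Normalized counts plus 1 (log axis) of the 16 genes that averaged at least 10, in 6 WT (blue) and 6 rd6 (red) libraries, with points in replicate order and the median as a bar. *Clec5a* and *Clec1a* are fully separated upward and *Clec18a* downward, while single libraries stand apart in *Klrg2* (WT replicate 4) and *Clec4a1* and *Clec4a2* (WT replicate 6).

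*Clec5a* (ENSMUSG00000029915) rose most among the activating myeloid receptors. It encodes MDL-1, which signals through DAP12, and lies on the - strand of chr6:40574894-40585821 (GRCm38), outside the large cluster. Its lowest, median and highest normalized counts were 3.11, 5.23 and 7.77 in WT and 11.6, 36 and 43.3 in rd6. The groups did not overlap, and rd6 replicate 1 was the lowest rd6 library. The log2 fold change was 2.34 (standard error, SE, 0.32, 5.07-fold, limma q = 0.0002), and it stayed called in every alternative run. The 250 bases before its start and those before the start of *Clec2d*, described below, are shown because these genes had the largest rise among the myeloid receptors and the highest level per kb in rd6. A 30-base window around the start of *Clec4d*, which was not called, is shown beside them because it holds the same element as the *Clec2d* stretch. Capitals mark matches to the interferon-stimulated element, searched on both strands as GAAA, any 2 bases and GAAA.
Clec5a, chr6:40585806-40586055, - strand: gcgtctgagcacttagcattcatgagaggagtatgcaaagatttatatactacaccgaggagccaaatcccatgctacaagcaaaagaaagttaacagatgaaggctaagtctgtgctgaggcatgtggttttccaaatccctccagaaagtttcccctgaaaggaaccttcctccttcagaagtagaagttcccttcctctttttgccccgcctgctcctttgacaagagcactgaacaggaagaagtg
Clec2d, chr6:129180365-129180614, + strand: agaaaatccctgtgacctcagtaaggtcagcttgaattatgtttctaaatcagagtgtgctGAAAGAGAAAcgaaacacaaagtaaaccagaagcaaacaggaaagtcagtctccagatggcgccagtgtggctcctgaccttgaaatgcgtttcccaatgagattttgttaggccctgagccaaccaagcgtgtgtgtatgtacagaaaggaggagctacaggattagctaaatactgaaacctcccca
Clec4d, chr6:123262097-123262126, + strand: gctttctcaaTTTCCTTTTCctctttgctc
These are RefSeq sequences (GRCm38.p6), read 5′ to 3′ on the strand of the gene and counted from the RefSeq start. For *Clec5a* that start lies inside the gene as given above from GENCODE, so that the last bases of its stretch fall within those coordinates. Windows of 250 bases before and 50 after the start were found for 23 of the 30 genes, 26 windows in all. The element occurred in 2 of them, 189 bases before the start of *Clec2d* and, on the other strand, at the start of *Clec4d*, and in 3.44% of all 32851 windows. The ETS core AGGAAGT, searched on both strands, occurred in the 2 windows of *Klrb1b* and in 9.35% of all windows. No window of these genes held both, and a match in letters is no evidence of binding.

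*Clec4n*, *Clec4d* and *Clec4e*, the receptors that use FcRγ, were not called, while *Fcer1g* itself was. *Clec4n*, which encodes dectin-2, had 14.8, 23 and 32.9 normalized counts (lowest, median, highest) in WT and 7.22, 17 and 27.8 in rd6. Its log2 fold change was -0.42 (SE 0.31, 95% confidence interval -1.09 to 0.24, limma q = 0.393), and the groups overlapped. *Clec4d*, which encodes MCL, had 7.22, 16.1 and 24.2 in WT and 3.61, 9.74 and 26.7 in rd6, a log2 fold change of -0.54 (SE 0.39, interval -1.38 to 0.30, limma q = 0.385). For *Clec4e*, which encodes the inducible receptor mincle, WT libraries held at most 1 read and rd6 libraries at most 4, too few to tell a change at this depth.

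The adaptors moved otherwise. *Fcer1g* had 79.7, 89.5 and 282 normalized counts in WT and 379, 819 and 932 in rd6 (log2 fold change 2.66, SE 0.32, limma q = 0.0001). *Tyrobp* had 99.6, 122 and 253 in WT and 1127, 2455 and 2791 in rd6 (log2 fold change 3.94, SE 0.27). *Hcst* had 0.97, 2.53 and 6.22 in WT and 10.7, 16.7 and 23.6 in rd6 (log2 fold change 2.26, SE 0.35, limma q = 0.0005). All 3 adaptors were separated between the genotypes. The upper bounds of the intervals of *Clec4n* and *Clec4d* lie far under the change of *Fcer1g*.

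Ratios of receptors to adaptors were then taken in each library, on the log2(normalized counts + 1) scale, with pairs chosen after the values had been seen, so that they are given as a description with no test. *Clec4n* relative to *Fcer1g* was -2.26 ± 0.578 (SD, n = 6) in WT and -5.34 ± 0.887 in rd6, a difference of -3.08, which is the difference between the 2 log2 fold changes above. *Clec4d* relative to *Fcer1g* was -2.76 ± 0.593 in WT and -5.96 ± 1.18 in rd6, a difference of -3.20. In both, all 6 rd6 libraries lay below all WT libraries. *Clec5a* relative to *Tyrobp* was -4.42 ± 0.571 in WT and -6.01 ± 0.445 in rd6, a difference of -1.60, with overlapping groups. Without WT replicate 6, where *Fcer1g* and *Tyrobp* were highest among WT, the differences were -3.24, -3.35 and -1.80.

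**Figure D3:**
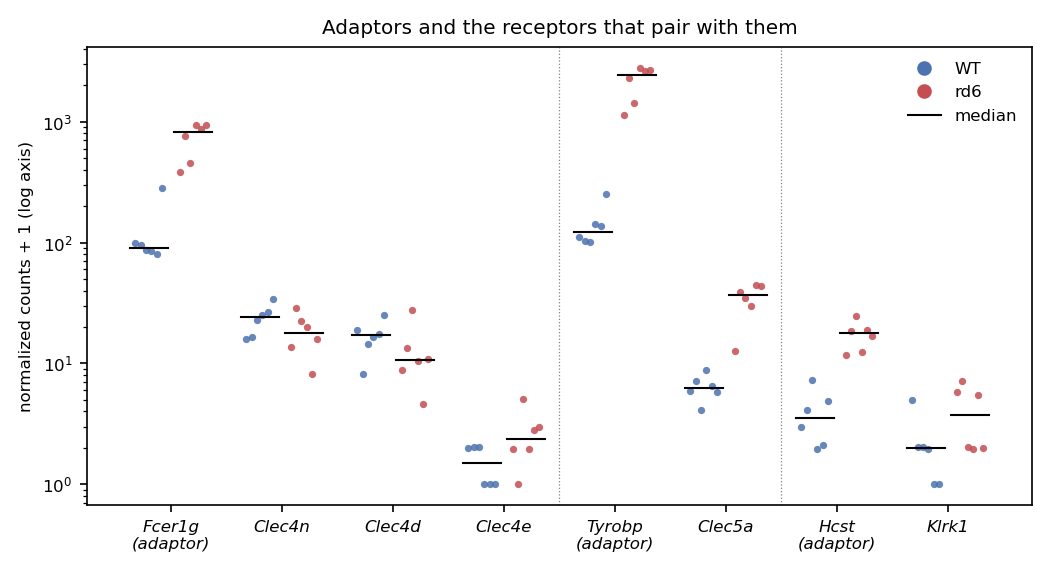
Normalized counts plus 1 (log axis) of the adaptors *Fcer1g*, *Tyrobp* and *Hcst*, each followed by receptors known to pair with it, in 6 WT (blue) and 6 rd6 (red) libraries with the median as a bar. The 3 adaptors are separated upward in rd6, as is *Clec5a*, while *Clec4n* and *Clec4d* overlap between the genotypes.

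Of 18 kinases and effectors downstream of these receptors, 8 were higher, 0 were lower and 10 were not called, with a median log2 fold change of 0.54 (0.0028 over all genes). *Vav1*, an exchange factor for RAC, had 9.86 to 53.2 normalized counts in WT and 89.1 to 179 in rd6 (log2 fold change 2.74, SE 0.33). *Lcp2*, the SLP-76 adaptor, was higher by 2.51, *Card9*, which links dectin-type receptors to NF-κB, by 1.31, and *Syk* by 1.1 on the log2 scale (limma q = 0.0253 for *Syk*, the highest of the 3). WT replicate 4 held 228 normalized counts of *Syk*, above all rd6 libraries. *Src* was lower at q below 0.05 but not by the limit on the fold change (log2 fold change -0.44). Of the 3 inhibitory phosphatases, *Inpp5d* (SHIP1) was higher by 1.67 on the log2 scale, *Ptpn6* rose by 0.40 (limma q = 0.0026), under the limit on the fold change, and *Ptpn11* had a log2 fold change of -0.14 (limma q = 0.293). Of 10 microglia markers 9 were higher, with *P2ry12* at 8.86 to 17.6 in WT and 123 to 378 in rd6, and *Csf1r* was not called. The median log2 fold change of the 10 markers was 2.20. Their summed level, in which the most abundant genes weigh most, was 15808 to 21176 in WT and 23572 to 31641 in rd6. The part of these cells in the change of *Clec5a* and the adaptors was not tested.

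The DCIR family and the *Clec12* receptors, which carry inhibitory motifs in several members, gave 0 calls in 5 genes. Of all genes tested 6.54% were called in either direction, so that 0 in so few genes does not set them apart. *Clec4a1* had 11.1, 18.7 and 64.8 normalized counts in WT and 9.55, 10.7 and 20.6 in rd6 (log2 fold change -0.71, SE 0.38, limma q = 0.227). *Clec4a2*, which encodes DCIR, had 0, 8.28 and 59.9 in WT and 1.81, 8.10 and 11.3 in rd6 (log2 fold change -0.12, SE 0.76, limma q = 0.934, against -0.99 in edgeR and -1.01 in DESeq2, not called). *Clec4a3* had 3.10, 10.7 and 30.9 in WT and 4.77, 10.8 and 21.6 in rd6 (log2 fold change -0.05, SE 0.45, limma q = 0.955). In all 3 the highest WT value is that of WT replicate 6. *Clec12a*, an inhibitory receptor of myeloid cells, had 5.54, 13.5 and 30.9 in WT and 6.68, 11.8 and 16.4 in rd6 (log2 fold change -0.23, SE 0.34, limma q = 0.702), again highest in WT replicate 6. Of *Clec12b* there were 1 to 6 reads in WT and 0 to 3 in rd6. Without WT replicate 6 the log2 fold changes were -0.39 for *Clec4a1*, 0.44 for *Clec4a2*, 0.24 for *Clec4a3* and -0.0011 for *Clec12a*, none of them called. The same library also held 160 normalized counts of *Cd72*, a lectin-like receptor of B cells and macrophages, where the other WT libraries held at most 36.9. Reads of the *Clec4a* genes could be divided among close paralogs, so their single values are uncertain.

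The 6 genes of the *Clec4* cluster, *Clec4a1*, *Clec4a3*, *Clec4a2*, *Clec4n*, *Clec4d* and *Clec4e*, lie within 368 kb on chromosome 6 (122921848 to 123289870). None was called. Of all 30 genes, 23 lie on chromosome 6, 20 of them within 8.98 Mb between 122270596 and 131247362. The other 7 lie on 6 other chromosomes.

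Both *Clec* genes of the endothelium were higher in rd6. *Clec14a* (ENSMUSG00000045930, chr12:58264720-58269290, - strand), a vessel protein that binds multimerin-2, had 348, 455 and 638 normalized counts in WT and 636, 912 and 1622 in rd6. Only WT replicate 1 and rd6 replicate 4 overlapped, and rd6 replicates 1 to 3 were the highest. Its log2 fold change was 1.11 (SE 0.24, 2.16-fold, limma q = 0.0058). *Clec1a* (ENSMUSG00000033082, chr6:129424772-129452000, - strand), which encodes a lectin of endothelial cells, had 18.4, 27.4 and 37.6 in WT and 39.7, 48.2 and 89.1 in rd6, without overlap. Its log2 fold change was 0.96 (SE 0.25, 1.94-fold, limma q = 0.0174).

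Markers of endothelial cells moved in the same direction. Of 8, 4 were higher (*Plvap*, *Tie1*, *Esam* and *Cdh5*), 2 more passed q below 0.05 alone, and the median log2 fold change was 0.80. The count of 4 depended on single libraries: it was 1 without WT replicate 2 or rd6 replicate 2, 2 without rd6 replicate 1, 7 without rd6 replicate 5 and 8 without rd6 replicate 4. Without rd6 replicates 1 to 3 it was 0. Their summed level was 5418 to 10252 in WT and 8864 to 20497 in rd6, and none was at 0. *Mmrn2*, the gene of the ligand of CLEC14A, was higher by 0.83 on the log2 scale (limma q = 0.0229). Relative to the mean of the 8 markers on the log2(normalized counts + 1) scale, *Clec14a* was -0.96 ± 0.299 (SD, n = 6) in WT and -0.66 ± 0.161 in rd6, a difference of 0.30, and for *Clec1a* the difference was 0.15, both without a test since these ratios were also chosen after the values had been seen. Without rd6 replicates 1 to 3, a choice made after seeing the data, the log2 fold change of *Clec14a* was 0.61 (limma q = 0.0573) and that of *Clec1a* 0.55 (limma q = 0.217), and neither was called. The part of endothelial RNA in the change of both genes was not tested.

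**Figure D4:**
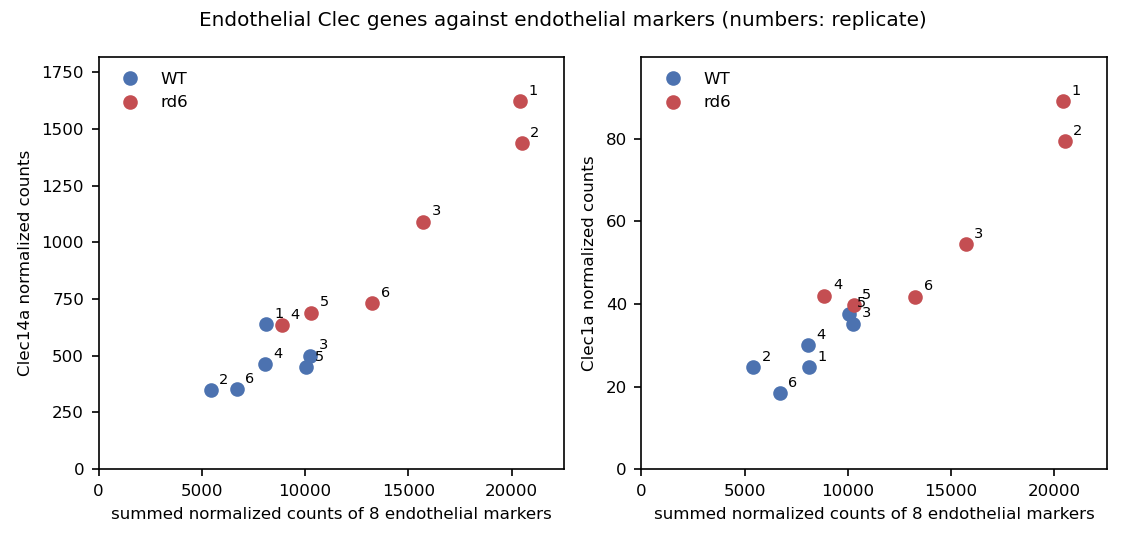
Normalized counts of *Clec14a* (left) and *Clec1a* (right) against the summed normalized counts of 8 endothelial markers in 6 WT (blue) and 6 rd6 (red) libraries, each numbered by its replicate. The marker sums run from 5418 to 10252 in WT and from 8864 to 20497 in rd6, and rd6 replicates 1 to 3 lie farthest up and to the right.

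*Clec2d* (ENSMUSG00000030157, chr6:129180615-129186534, + strand) encodes a surface ligand that inhibits natural killer cells through the receptor of *Klrb1b*. It had 195, 230 and 287 normalized counts in WT and 249, 460 and 589 in rd6. All rd6 libraries but replicate 4, the lowest, lay above all WT libraries. The log2 fold change was 0.91 (SE 0.18, 1.88-fold, limma q = 0.0034). Without rd6 replicates 1 to 3 it was 0.74 (limma q = 0.0738). The receptor gene *Klrb1b* had at most 3 reads in any WT library and 2 to 5 in rd6 (log2 fold change 0.99, limma q = 0.0714), which was called without WT replicate 4 (1.15, limma q = 0.0395) or 6 (1.15, limma q = 0.0483).

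The other genes of the *Clec2* group were not called. *Clec2l*, a form known from the brain, had 20.6, 34.2 and 50.9 normalized counts in WT and 16.2, 26.9 and 113 in rd6 (log2 fold change -0.12, SE 0.41, limma q = 0.882). The highest value is that of rd6 replicate 5, the library with the high *Snap25*, and without it the log2 fold change was -0.49. *Clec2g* was at 43.7 in WT replicate 4, the library with the corneal keratins, and at most 1.03 in the other WT libraries, while rd6 libraries held 0 to 5 reads. *Clec2i* had 0 to 2 reads in WT and 2 to 8 in rd6 (log2 fold change 1.01, limma q = 0.0833).

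Among the secreted proteins, 1 gene was called higher, 1 rose and 1 fell at q below 0.05 by less than the limit on the fold change, and 1 was not called. *Clec18a* (ENSMUSG00000033633, chr8:111058920-111092426, - strand) had 541, 663 and 839 normalized counts in WT and 372, 434 and 501 in rd6, and all rd6 libraries lay below all WT libraries. It fell by 0.62 on the log2 scale (SE 0.11, 1.53-fold, limma q = 0.0020), the only member lower at q below 0.05. *Clec3b* encodes tetranectin, which binds plasminogen, and had 37.2, 64.5 and 111 in WT and 85.5, 111 and 131 in rd6. Its log2 fold change was 0.76 (SE 0.21, 1.69-fold, limma q = 0.0253), and it passed both limits without WT replicate 3 (0.92, limma q = 0.0048) or rd6 replicate 6 (0.83, limma q = 0.0253). With a block for the replicate number its limma q was 0.0725.

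*Clec11a*, the gene of a growth factor for bone, had 199, 232 and 322 normalized counts in WT and 128, 279 and 354 in rd6. Its log2 fold change was 0.00 (SE 0.25, 95% confidence interval -0.54 to 0.54), with rd6 replicates 1 to 3 at 344 to 354 and replicates 4 to 6 at 128 to 215. *Clec3a* (ENSMUSG00000008874, chr8:114418086-114425846, + strand), known from cartilage, was at 0 in all WT libraries but replicate 5, which held 2 reads, and at 0, 5.46 and 14.4 in rd6. The rd6 mean was 1.97-fold the floor of 3 reads per library. It rested on rd6 replicates 1 to 3 with 8 to 14 reads, since replicates 4 to 6 held 0 to 3. The limma q was 0.0337, but *Clec3a* entered only through the rd6 libraries, so that its direction was fixed by the limit. Leaving out any of WT replicates 1, 2, 3 and 6 or rd6 replicates 1, 2 and 3 ended the call (limma q from 0.0648 to 0.0738). The rd6 replicate 6 held no read of it.

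Of the 7 *Klr* receptors 1 was called, where 6.54% of all genes tested were called in either direction. *Klrd1* (ENSMUSG00000030165, chr6:129591782-129598775, + strand) encodes CD94, the partner of the NKG2 receptors, and was at 0 in 5 WT libraries and at 4.15 in WT replicate 3. In rd6 its lowest, median and highest normalized counts were 0.90, 2.92 and 7.19, so that the groups overlapped. *Klrd1* had a WT mean of 0.69, so that it entered only through the rd6 libraries and its direction was fixed by the limit. The limma log2 fold change was 1.58 (SE 0.48, q = 0.0354), whereas edgeR with TMM gave q = 0.134. Leaving out any of WT replicates 1, 2, 4, 5 and 6 or rd6 replicates 2, 3, 4 and 6 ended the call (limma q from 0.0555 to 0.0775). *Klrk1* (NKG2D), the partner of *Hcst*, had 0 to 4 reads in WT and 1 to 6 in rd6 (log2 fold change 0.92, limma q = 0.227).

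*Klrg2* was at 2.07 to 7.75 normalized counts in the WT libraries other than replicate 4, which held 168, and at 1.91 to 36.1 in rd6. Its log2 fold change was -0.01 (SE 0.91, limma q = 0.994) with and 0.80 without WT replicate 4, and with all libraries it was -1.13 in edgeR and -1.16 in DESeq2, not called in either. The rd6 libraries with the most *Klrg2*, replicates 5 and 1 (36.1 and 31.0), also held the most *Krt5* of their group (35506 and 19610.5). *Klrg1*, which binds cadherins, had 0 to 3 reads in WT and 1 to 6 in rd6, *Klra2* (LY49B) 2 to 14 and 4 to 9, and *Klrb1c* (NK1.1) 0 to 5 in both. *Klrb1b* and *Klrb1c* overlap the gene model *Gm44511* on the same strand and, with the other close paralogs of this complex, are uncertain where reads could be shared.

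Of 10 markers of natural killer cells, 8 were tested and 0 were called, with *Gzma* highest in its change (0.97 to 12.8 normalized counts in WT, 2.98 to 24.7 in rd6, log2 fold change 1.25, limma q = 0.104). *Gzma* alone was called without WT replicate 1 or rd6 replicate 6. Their summed level was 29.9 to 49.3 in WT and 30.8 to 85.6 in rd6, and the defining *Ncr1* was at 0 to 1.04 and 0 to 5.73. Among T cell markers, 2 of 8 were higher, *Cd3d* (limma q = 0.0215) and *Cd3e* (limma q = 0.0463), at levels of at most 4.84. *Cd3d* had a WT mean under 1, so that it entered only through the rd6 libraries and its direction was fixed by the limit. Of these markers 0 were called without WT replicate 2, 3 without rd6 replicate 6, and 1 without any of WT replicates 1, 3, 4 and 5 or rd6 replicates 1, 2, 3 and 5. Of the ligands of these receptors, 14 of 17 were tested and 4 were higher, *H2-D1* by 1.26, *H2-T23* by 0.98 and *H2-K1* by 0.89 on the log2 scale beside *Mmrn2*. *H2-T23* encodes Qa-1, the class I molecule that CD94 with NKG2 reads, and had 315 to 713 in WT and 722 to 923 in rd6. The ligand genes of NKG2D that were tested, *Raet1d*, *Raet1e*, *H60b*, *H60c* and *Ulbp1*, were not called.

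Of the remaining members, *Clec16a* (ENSMUSG00000068663, chr16:10545339-10744878, + strand), a regulator of mitophagy and endosomes, was the steadiest. It had 1642, 1907 and 1956 normalized counts in WT and 1553, 1738 and 1971 in rd6, with a log2 fold change of -0.09 (SE 0.06, 95% confidence interval -0.23 to 0.04, limma q = 0.356). *Clec10a*, a galactose receptor of macrophages and dendritic cells, had 2 to 9 reads in WT and 3 to 13 in rd6 (log2 fold change 0.51, limma q = 0.405). *Clec1b*, the platelet receptor for podoplanin, had 2 to 4 and 3 to 10 reads (log2 fold change 0.77, limma q = 0.0953), and it was called without rd6 replicate 4 (0.94, limma q = 0.0380). *Clec9a*, the receptor of dendritic cells for exposed actin, had 0 to 2 and 0 to 6 reads. *Clec1b* and *Clec9a* overlap on the same strand, so that reads in the shared part could belong to either. None of 5 platelet markers was called, and *Siglech* was the only 1 of 9 dendritic cell markers that was (1.97 to 11.7 normalized counts in WT and 19.4 to 43.7 in rd6). Without rd6 replicate 4 the number was 2.

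C-type lectin domain genes with other names gave 4 higher and 1 lower of 25 tested (36 listed), with a median log2 fold change of 0.18. *Chodl* was higher by 1.52, *Cd209g* by 1.5, *Layn*, a hyaluronan receptor, by 0.88 and *Cd302* by 0.84 on the log2 scale. The number higher was 2 without WT replicate 6 and 2 to 5 over all libraries left out singly, and the number lower was 0 without WT replicate 3 or rd6 replicate 1.

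Of 9 markers of border and tissue macrophages 1 was higher (*Ms4a7*) and of 6 neutrophil markers 3 were higher (*S100a8*, *Csf3r* and *Cxcr2*, the last with a WT mean under 1). Of 7 monocyte markers 1 was lower and 6 were not called. The number lower was 0 without WT replicate 3 or rd6 replicate 1 or 5, and 1 was higher without rd6 replicate 4, 5 or 6. Of 6 fibroblast markers 1 was lower (*Pdgfra*), of 8 RPE markers 1 was lower (*Lrat*), and of 8 rod markers 3 were lower, among them *Nrl* and *Prph2*. At q below 0.05 without the limit on the fold change, 3 of the RPE markers were lower. In 2 RPE markers, among them *Rpe65*, all rd6 libraries lay below all WT libraries (4.58% of all genes). Without single libraries, the number higher was 2 of the border macrophage markers (WT replicate 4), and the number lower was 0 of the fibroblast markers (rd6 replicate 4 or 5) and 2 of the RPE markers (WT replicate 4 or rd6 replicate 3, 4 or 6). Of the rod markers 7 were lower without rd6 replicate 5, 1 without WT replicate 2, and 2 to 4 without any other library. Their part in the changes of the *Clec* and *Klr* genes was not tested.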

How the data were processed

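RPE total RNA of 12 libraries, 6 per genotype, was made into stranded libraries and sequenced by the authors, who aligned the reads to mm10, counted them with Rsubread at standard parameters and normalized them with DESeq2. Tool versions and strand use in counting were not given in the sources used here. The deposited signal is the read count of a gene divided by the size factor of the library. All values are whole multiples of 1 read (100% within 0.01 reads), so the reads could be recovered. The authors' mean, fold changes, standard errors, Wald statistics and p-values were not used. Of 28596 entries, 5 repeated ones were dropped.

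limma 3.58.1 (R 4.3.3; lmFit, eBayes with trend) was run on log2(value + 1) for the 22917 genes averaging 1 or more, with genotype as the only term. A call needs q below 0.05 and a log2 fold change of at least 0.81. The added 1 understates the change of low genes. edgeR 4.0.16 and DESeq2 1.42.0 on the recovered reads, pseudocounts of 0.1 and 10, other filters, TMM rescaling, a replicate block and leaving out each library were alternatives. The scripts were tested on simulated data. Coordinates and exon lengths are from GENCODE M21 (GRCm38). No 2 libraries were copies (chi-square per gene of at least 9.45 in 66 pairs). Each library is from both eyes combined, and the labels number the replicates without naming the animals, so p-values measure the spread between these samples. The members, marker lists and tests were chosen with earlier results of these data known. Every member is named, with full values for those called or with a mean of at least 10. Genes of other lists are named where called, and otherwise the gene leading its list. *Raet1d*, *Raet1e*, *H60b*, *H60c*, *Ulbp1*, *Ncr1*, *Ptpn11*, *Ptpn6*, *Src*, *Cd72*, *Fcrls*, *Csf1r*, *Pecam1*, *Snap25*, *Rpe65*, *Mfrp* and the keratins were named after their values were seen, as were the 5 ratios. Some genes of the marker and lectin lists are counted but not reported here by name.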

Additional observations from a re-analysis of the deposited data

Results flagged for a closer look

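In 11 of 60 groups of 6 libraries, 2 for each of the 30 genes, the highest or lowest library stood apart from the others by more than Dixon's limit. Chance flags about 1 in 20 groups if the values are normally distributed. Several flagged groups held only a few reads, and the chance rate for such counts was not measured. Whether 11 of 60 is more than chance gives was therefore not tested.

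WT replicate 4 held 168 normalized counts of *Klrg2* and 43.7 of *Clec2g*, where the other WT libraries held at most 7.75 and 1.03, and it was the lowest WT library in *Clec16a* (1642). It is the library with the high corneal keratins. WT replicate 6 held 64.8 of *Clec4a1* and 59.9 of *Clec4a2*, where the others held at most 24.3 and 13.6, and 0 of *Klrg1*. It is the library with more *Fcrls* and *Cd72*. In rd6, replicate 5 held 113 of *Clec2l* with the high *Snap25*, and replicate 2 held 20.6 of *Clec4a1*, where the others held at most 13.3.

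At a few reads each, WT replicate 5 held 2.21 normalized counts of *Clec3a* and WT replicate 3 held 4.15 of *Klrd1*, where the other WT libraries held 0. WT replicate 1 held 3.94 of *Klrk1*, where the others held at most 1.04.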

How the results depend on the processing

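Of 730 fits of single genes under the alternatives, 636 kept direction and call, 34 lost a call, 7 gained one and 53 turned sign, the last in 9 genes that were not called. The number of members called higher was 6 with all libraries and 4 to 6 when single libraries were left out. It was 3 with a pseudocount of 10, without *Clec1a*, *Clec3a* and *Klrd1*, and 1 (*Clec5a*) without rd6 replicates 1 to 3 (chosen after seeing the data, with 3 libraries fewer), where all genes called higher fell from 1015 to 605. All genes called lower were 290 with a pseudocount of 10, against 484. Members separated upward were 2, between 2 and 5 without single libraries (5 without WT replicate 3 or rd6 replicate 4) and 8 without rd6 replicates 4 to 6, and members separated downward were 1, or 2 without rd6 replicates 1 to 3. Without rd6 replicates 4 to 6, 3 of the 18 kinases and effectors were called, against 8. With a block for the replicate number, 2 of 8 endothelial, 0 of 8 T cell and 0 of 8 rod markers were called, and 4 members were called higher, without *Clec1a* (limma q = 0.0574) and *Clec3a* (limma q = 0.0693). *Syk* (limma q = 0.0765), *Mmrn2* (limma q = 0.0820) and *Cd209g* (limma q = 0.0733) also lost their calls. The replicate numbers do not pair the libraries: deviations of same-numbered libraries correlated between -0.57 and 0.17, and 1 of 6 WT libraries correlated best with its own number. *Klrd1* had no adjusted p in DESeq2.

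The sign turned near 0 or with single libraries. Left out singly, log2 fold changes ranged from -0.11 to 0.18 for *Clec11a*, -0.49 to 0.055 for *Clec2l*, -0.39 to 0.80 for *Klrg2*, -0.36 to 0.24 for *Clec4a3*, -0.75 to 0.44 for *Clec4a2*, -0.33 to 0.10 for *Klra2*, -0.71 to 0.54 for *Clec2g* and -0.13 to 0.48 for *Klrb1c*. Without WT replicates 4 and 6 they were -0.044 for *Clec11a*, 0.91 for *Klrg2*, 0.054 for *Clec12a*, 0.41 for *Clec4a3*, 0.76 for *Clec4a2*, 0.13 for *Klra2* and 0.48 for *Clec2g*, and without rd6 replicate 5 as well 0.53 for *Klrg2*, 0.049 for *Clec12a*, 0.50 for *Clec4a3*, 1.06 for *Clec4a2*, 0.24 for *Klra2* and 0.25 for *Clec2g*. Without rd6 replicates 1 to 3 *Clec11a* was -0.55. Without rd6 replicates 4 to 6 *Klrg2* was 0.29, *Clec4a3* 0.50, *Clec4a2* 0.31 and *Klra2* 0.11. *Clec2l* was 0.18 in edgeR with TMM, 0.16 with RLE and 0.16 in DESeq2. *Klrg2* was 0.0020 and *Clec4a2* 0.33 with a pseudocount of 0.1, and *Klrg2* was 0.0043 with TMM rescaling. None of these values was called, and the cause was not tested.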
